A study of Homo sapiens with 2 samples.

Results

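The liver transcription factors examined here are the DNA-binding proteins HNF4A, FOXA1, FOXA2, FOXA3, ONECUT1, CEBPA, CEBPB and NR5A2. They were taken as the array rows whose platform annotation gives 1 gene symbol from that list. Of the 8 factors, 7 had such a row, 1 row each, among 22413 named genes, and HNF4A was not analysed here. The arrays were of MHCC97H, a human liver cancer cell line, either with GP73 knocked down (1 array) or as control cells, in which GP73 is high by the labels (1 array). The sample titles, MHCC97HshGP73 and MHCC97Hshv, read as a short hairpin RNA against GP73 and its vector control. GP73 is the product of GOLM1 and sits in the Golgi membrane, and the series looked for components that act with it in the growth of liver cancer cells. Both cultures were grown in the same medium with 10% fetal bovine serum, and the labels do not say whether the knockdown cells were 1 clone, a mixture of clones or pooled cultures. Each condition was measured once, so no value below has a replicate error and no test between the conditions was possible.

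Hepatocyte identity is held by a small set of transcription factors that bind one another's genes and the genes of plasma proteins and liver metabolism. The FOXA proteins are forkhead factors known to open closed chromatin early in liver development. HNF4A and NR5A2 are nuclear receptors, ONECUT1 (also called HNF6) carries a cut domain and a homeodomain, and the C/EBP proteins are leucine zipper factors, of which CEBPA is tied to the resting, differentiated hepatocyte and CEBPB to the acute phase response and regeneration. In liver tumours the level of several of these factors is known to be changed.

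Values are log2 signals as deposited, and a difference is the knockdown array minus the control array. A gene is called measured when the higher of its signals reached 5.84, the median of that quantity over all genes with a row, which 11207 genes did, 9920 of them protein-coding. Signals of different rows depend on their probes and are not compared with each other as levels. GOLM1, the targeted gene, had a log2 signal of 7.46 in the knockdown array and 9.13 in the control array, a difference of -1.67, which was the lowest of all measured genes. The array medians over 70523 rows were 4.80 in the knockdown array and 4.72 in the control array. Among measured genes the median difference was -0.01 and the SD of the differences was 0.262. As a scale for error within an array, 100 genes with 2 rows of distinct value had an SD of 0.133 between the differences of their rows. Only rows that reached 5.84 in at least 1 array were used for it. That SD does not cover variation between cultures, RNA preparations or hybridisations, and shared probes between rows, which were not tested, would make it too small.

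None of the 7 factors differed by as much as 1.5-fold between the GP73 knockdown array and the control array. Their differences ran from -0.26 for FOXA2 to 0.23 for NR5A2, with 3 higher and 4 lower and a median of -0.10. FOXA1, FOXA2, CEBPA and CEBPB were measured, whereas FOXA3, ONECUT1 and NR5A2 were below the floor in both arrays. Of the measured factors 1 was higher and 3 were lower, with a median of -0.11. Over all measured genes 0.294% were at least 2-fold and 2.63% at least 1.5-fold higher or lower, so none among so few factors is near the background share and is no result about them. By direction, 0.161% were higher and 0.134% lower by at least 2-fold, and 1.08% were higher and 1.55% lower by at least 1.5-fold. Of the 7 differences, 4 were smaller than the SD of 0.133 between rows of 1 gene, and none reached 2 such SDs. That SD came from rows that reached the floor. It was not estimated for signals as low as those of FOXA3, ONECUT1 and NR5A2.

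**Figure D1:**
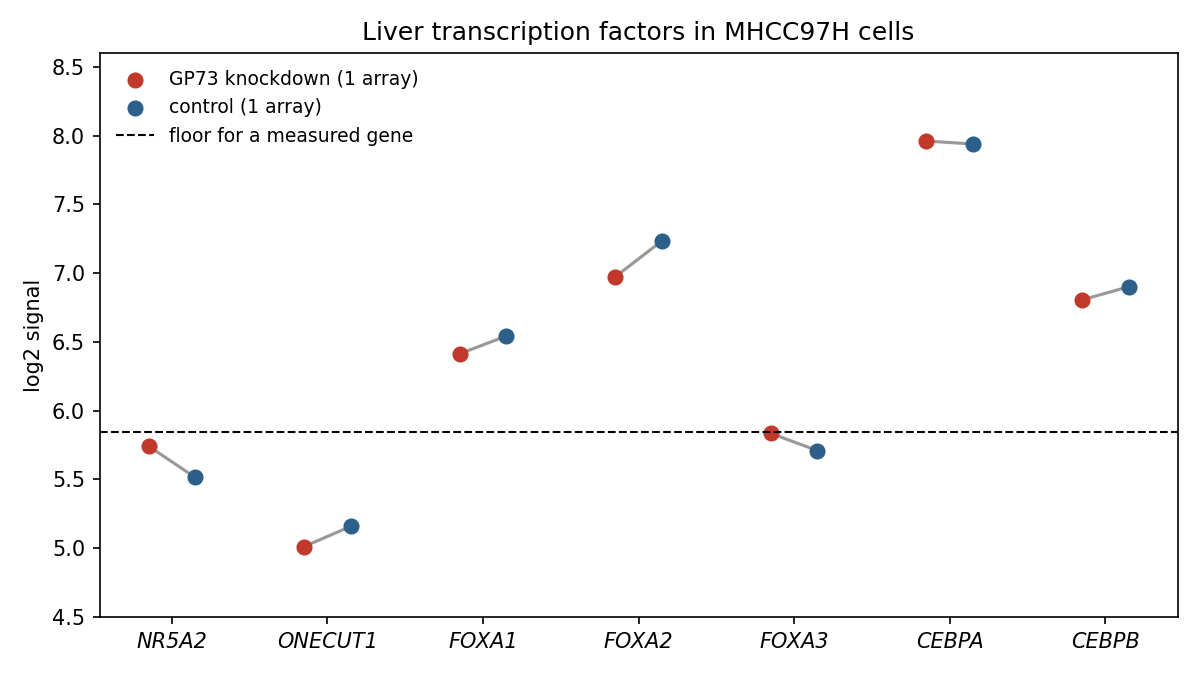
Log2 signal (vertical axis) of the 7 factors with a row, each with the GP73 knockdown array in red at the left and the control array in blue at the right, 1 array each. The dashed line is the floor of 5.84 for a measured gene; NR5A2, ONECUT1 and FOXA3 lie below it in both arrays, and the line joining the arrays is short for every factor.

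Among the forkhead factors, FOXA2, known from mouse liver for its part in bile acid and fasting metabolism, had a log2 signal of 6.97 in the knockdown array and 7.23 in the control array. The difference of -0.26, or 1.20-fold lower, was the lowest of the 7, and 29.6% of measured genes lay at least as far from 0. Its paralog FOXA1 had 6.41 in the knockdown array and 6.54 in the control array, a difference of -0.13. FOXA1 and FOXA2 were thus both lower in the knockdown array, FOXA1 by slightly less than 1 SD between rows of 1 gene and FOXA2 by slightly less than 2. FOXA3, known from mouse as the most abundant of the trio in adult liver, had 5.83 in the knockdown array, just under the floor, and 5.71 in the control array. Its difference of 0.13 was in the other direction, and 51.6% of the genes of like signal had a lower one. Each FOXA gene had its own row, and whether the probes of a row also match a paralog was not tested.

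Of the nuclear receptors, NR5A2 (also called LRH-1), a regulator of bile acid synthesis and cholesterol transport, had a log2 signal of 5.74 in the knockdown array and 5.51 in the control array. The difference of 0.23 was the highest of the 7 factors, and both signals were below the floor. Genes of such low signal leaned the same way: in its bin, 1 of 20 equal bins of mean signal over all genes, the median difference was 0.14, and 72.8% of the genes had a lower difference than NR5A2. ONECUT1, which in the liver is known for its role in bile duct formation and glucose metabolism, had 5.01 in the knockdown array and 5.16 in the control array. Its difference of -0.15 went against that lean, and 16.4% of the genes in its bin, whose median was 0.14, had a lower one.

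The C/EBP factors were the pair with the smallest differences among the measured factors. CEBPA had a log2 signal of 7.96 in the knockdown array and 7.94 in the control array, a difference of 0.02. Of all measured genes 92.9% lay at least as far from 0. CEBPB had 6.80 in the knockdown array and 6.90 in the control array, a difference of -0.10. CEBPA-DT, the noncoding transcript that starts beside CEBPA in the opposite direction, had 5.92 in the knockdown array and 6.004 in the control array, a difference of -0.09. Whether the rows of CEBPA and CEBPA-DT share signal was not tested. LINC00261, the noncoding neighbour of FOXA2, was below the floor in both arrays, with 4.93 in the knockdown array and 5.16 in the control array; it is named outside the rule for named genes, after its values were seen.

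The differences of all genes depended on signal level, and this touched the order of the factors. The median difference was 0.14 in the 10th of the 20 signal bins, which holds NR5A2, and -0.08 in the 19th, which holds CEBPA. With this trend removed by lowess, ONECUT1 was the lowest factor, at -0.26, and FOXA2 followed at -0.22, FOXA1 at -0.14 and CEBPB at -0.07. FOXA3 stood at 0.03, CEBPA at 0.10 and NR5A2 at 0.13. All 7 factors lay within the central 95% of the differences of the genes in their own signal bin.

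**Figure D2:**
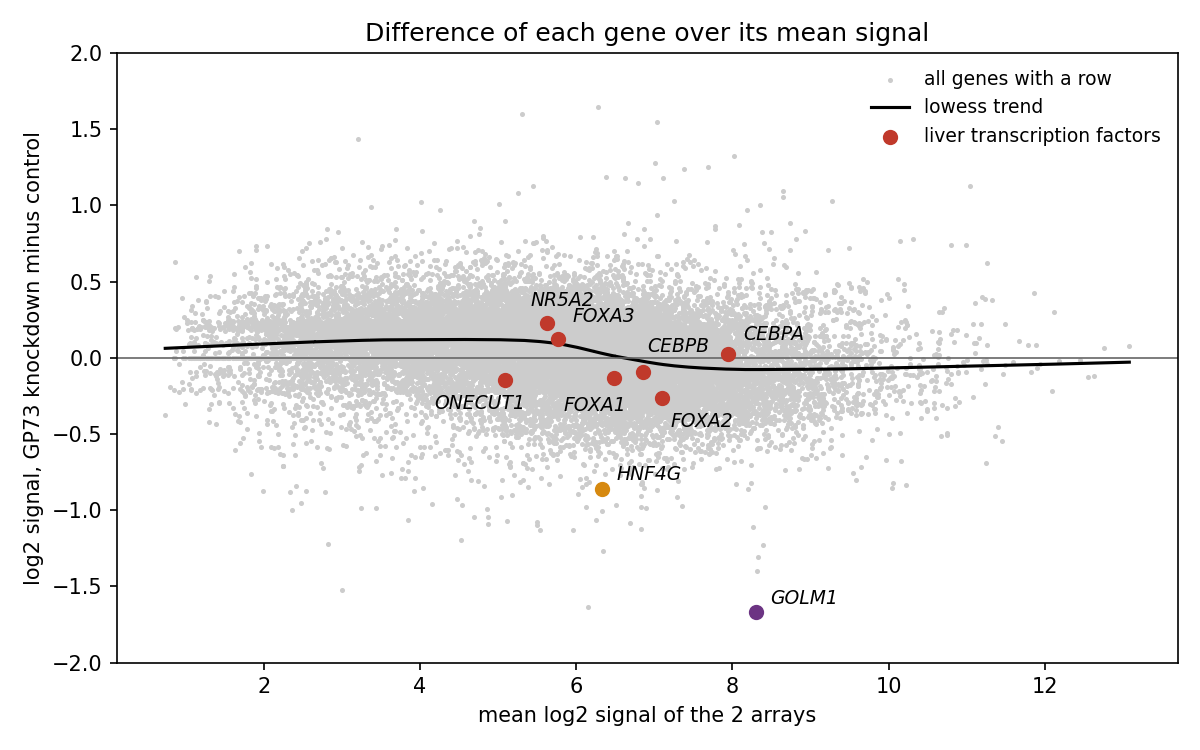
Difference in log2 signal, GP73 knockdown minus control (vertical axis), over the mean log2 signal of the arrays (horizontal axis) for 22413 genes in grey, with the lowess trend as a black line. The 7 factors (red) lie within the grey cloud between -0.26 and 0.23, while the nuclear receptor HNF4G (orange) stands at -0.86 and GOLM1 (purple) at -1.67.

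The direction was the same under every scaling tried for 6 of the 7 factors. CEBPA was the exception: it stood at 0.02 as deposited, at 0.07 with quantile normalisation and at -0.06 with each array centred on the median of all genes with a row. Over these scalings FOXA2 stood between -0.34 and -0.22 and FOXA1 between -0.21 and -0.13. NR5A2 stood between 0.13 and 0.23, and FOXA3 between 0.03 and 0.13. Median centring lowered every factor by the same amount, so the 4 factors lower as deposited could not change sign under it.

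**Figure D3:**
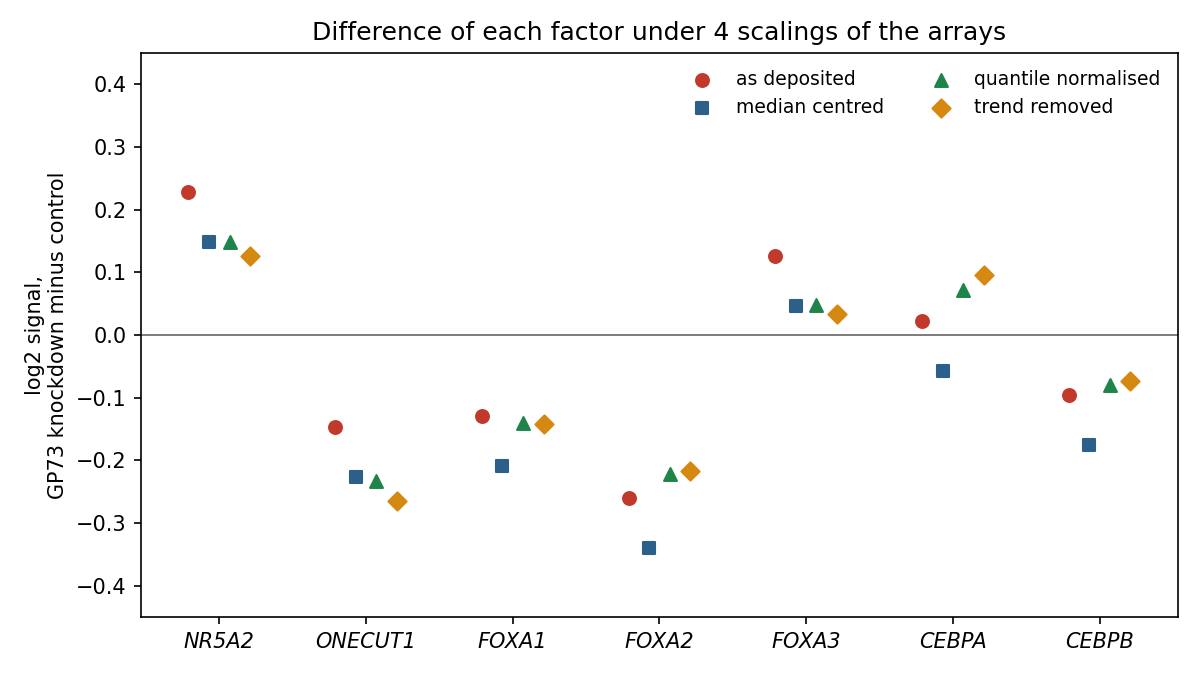
Difference in log2 signal, GP73 knockdown minus control (vertical axis), of each of the 7 factors as deposited (circles), median centred (squares), quantile normalised (triangles) and with the trend over signal removed (diamonds). CEBPA crosses 0, from -0.06 when centred to 0.10 with the trend removed, and the other factors keep their side.

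The liver factors are known to bind each other's promoters, so the bases just before the start of each factor's gene were searched for their motifs. The RefSeq promoter table of GRCh38.p14 held 10 promoters of 7 of the 8 factors, 2 of them of HNF4A, whose signal was not analysed here. It held no promoter of FOXA2, so FOXA2 was not searched. In the 250 bases before the start, the forkhead motifs TGTTTAC and TGTTTGC were searched on both strands, and they stood in 6.09% of all 35116 promoters of that table. Of the 10 promoters, 2 held one, that of FOXA1 and 1 of the NR5A2 promoters. These are shown here, 5′ to 3′ on the strand of the gene, because they place a forkhead motif in front of a forkhead gene and of the factor with the highest difference; capitals mark the motif, read on the opposite strand.
FOXA1, chr14:37595250-37595499, minus strand: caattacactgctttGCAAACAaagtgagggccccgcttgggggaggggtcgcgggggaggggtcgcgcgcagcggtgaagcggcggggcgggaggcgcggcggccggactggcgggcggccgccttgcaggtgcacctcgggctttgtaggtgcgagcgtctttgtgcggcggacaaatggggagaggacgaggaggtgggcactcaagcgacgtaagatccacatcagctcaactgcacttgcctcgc
NR5A2, chr1:200042341-200042590, plus strand: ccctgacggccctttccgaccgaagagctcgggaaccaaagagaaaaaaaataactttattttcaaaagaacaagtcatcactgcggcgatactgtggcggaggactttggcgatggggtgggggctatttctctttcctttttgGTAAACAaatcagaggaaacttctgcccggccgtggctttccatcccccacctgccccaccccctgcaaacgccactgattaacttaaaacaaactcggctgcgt
The match in the FOXA1 promoter, GCAAACA, begins 235 bases before the start, and the match in the NR5A2 promoter, GTAAACA, begins 105 bases before it. FOXA1 was 0.13 lower and NR5A2 0.23 higher in the knockdown array. The difference of FOXA1 was smaller than the SD of 0.133 between rows of 1 gene, and NR5A2 was below the floor. Whether the motif bears on either difference was not tested. The cut homeodomain motifs ATTGATT and ATCGATT, which stood in 2.30% of all promoters of the table, were found in 1 of the 10, a promoter of HNF4A. No C/EBP motif TTGCNNAA, no HNF4 motif (CAAAGTCCA or CAAAGGTCA) and no NR5A2 motif (CAAGGTCA or CAAGGCCA) was found on either strand in these 10 windows. These motifs stood in 9.05%, 0.664% and 2.49% of all promoters of the table, and TATAAA, which was found in 4 of the 10, in 10.7%.

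Related transcription factors were then set beside the 7, from 4 lists that hold 56 other factors with a row, 38 of them measured. Of these 25 were higher and 13 lower in the knockdown array, with a median of 0.12 against -0.01 over all measured genes. Of all 11207 measured genes 5356 were higher, 5661 lower and 190 equal, which is the background for the direction counts of each list below. Among the 38 factors only HNF4G was at least 1.5-fold different, 1 of 38 or 2.63%, which equals the background share of 2.63%. HNF4G, the closest relative of HNF4A, had a log2 signal of 5.90 in the knockdown array and 6.75 in the control array. Both signals were above the floor, and the difference of -0.86, or 1.81-fold lower, was rank 27 of 11207 measured genes counted from the lowest. Its direction was opposite to that of NR5A2, the other orphan receptor described above.

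The list of liver nuclear receptors had 11 measured genes, 4 higher and 7 lower, with a median of -0.01. NR1D1 (REV-ERB alpha), a repressor of the circadian clock, had 7.10 in the knockdown array and 6.62 in the control array, a difference of 0.47. RXRA, the partner receptor of many liver nuclear receptors, stood at 0.22, NR2F1 at 0.24 and RXRB at -0.12. The receptor NR0B2 (SHP), a partner that represses NR5A2 and is itself a known NR5A2 target, was below the floor, with 5.45 in the knockdown array and 4.99 in the control array, and is named outside the rule.

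Among the homeodomain, cut and GATA factors 7 of 9 measured genes were higher and 2 lower, with a median of 0.14. Both paralogs of ONECUT1 differed from it in direction. ONECUT2 had 6.80 in the knockdown array and 6.47 in the control array, a difference of 0.32, and ONECUT3 had 5.995 in the knockdown array and 5.58 in the control array, a difference of 0.42. ONECUT3 counted as measured only because its signal in the knockdown array passed the floor. GATA6, an endoderm factor, stood at 0.24, and HHEX, a homeodomain factor of early liver budding, at -0.33.

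In the C/EBP and PAR bZIP family 5 of 7 measured genes were higher and 2 lower, with a median of 0.17. CREB3L3 (CREB-H), a membrane-bound factor of the liver released by cleavage in the Golgi, had 8.47 in the knockdown array and 8.22 in the control array, a difference of 0.25. NFIL3 stood at 0.19 and ATF4, the main factor of the amino acid stress response, at 0.18. CEBPZ, which shares the name but lacks the leucine zipper of the family, stood at -0.35. The other FOX factors had 9 of 11 measured genes higher and 2 lower, with a median of 0.22. The 2 lower were FOXN2 at -0.16 and FOXP1 at -0.07, named outside the rule. FOXA1 and FOXA2 were also lower, and FOXA3, below the floor, was higher at 0.13. FOXK2 stood at 0.37, the cell cycle factor FOXM1 at 0.33, FOXO1 at 0.26 and FOXJ3 at 0.24. The control signal of FOXO1, 5.63, was under the floor. With the trend over signal removed the medians were 0.24 for the other FOX factors, 0.21 for the homeodomain, cut and GATA factors and 0.12 for the bZIP family. The coactivators and corepressors had 5 of 7 measured genes higher and 2 lower, with a median of 0.14. They included the acetyltransferase CREBBP at 0.24, the FOXA-binding corepressors TLE1 at 0.23 and TLE3 at 0.14, and NCOA1 at 0.18. Whether these lists differ from the liver factors was not tested.

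**Figure D4:**
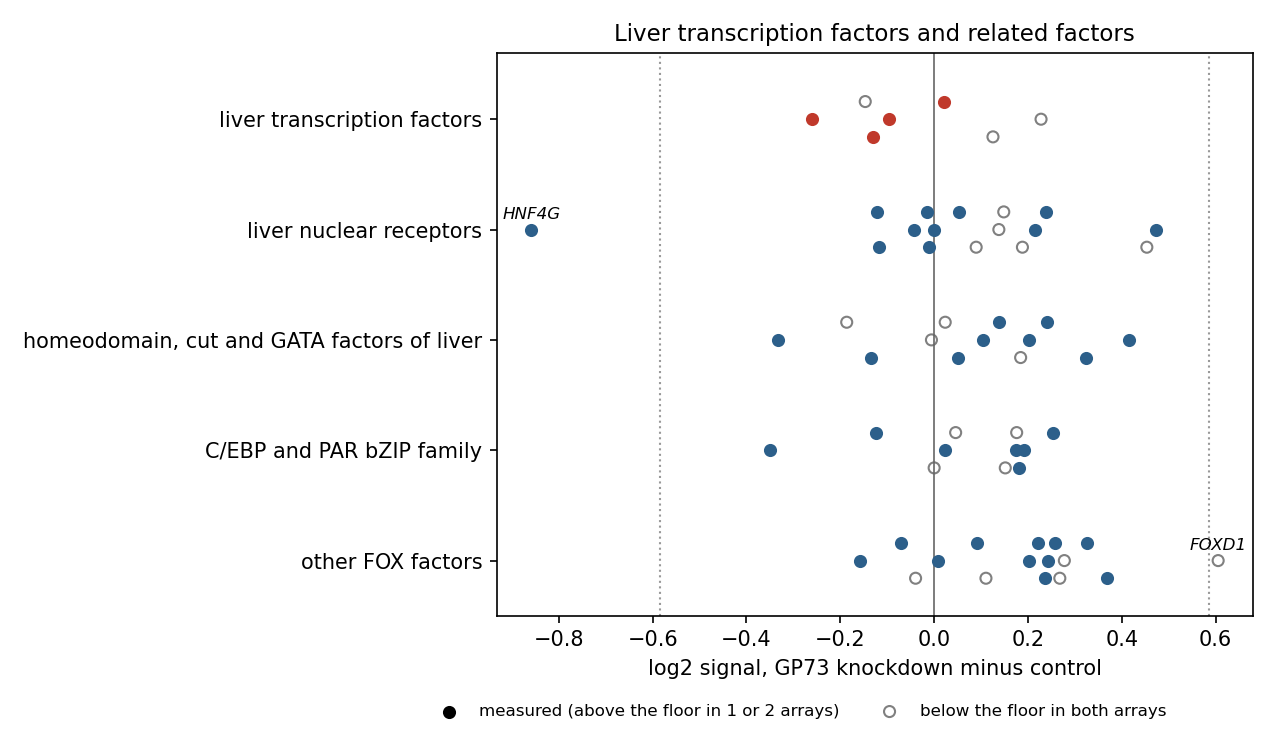
Difference in log2 signal, GP73 knockdown minus control (horizontal axis), of the 7 liver factors (red) and of the genes of 4 lists of related factors (blue), 1 point per gene, with vertical offsets only to separate points. Filled points were measured, open points were below the floor in both arrays, and the dotted lines mark 1.5-fold; HNF4G is the only measured factor past them, and FOXD1 the only one below the floor.

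Genes known as targets of the factors, from textbook knowledge, made up 5 lists with 70 genes with a row other than the factors themselves. Of these 25 were measured, 15 of them higher and 9 lower in the knockdown array and 1 equal, with a median of 0.13. At least 2-fold lower were 3 of the 25, ADH1C, FGA and CP, and none was at least 1.5-fold higher. The background shares were 0.134% of measured genes at least 2-fold lower and 1.08% at least 1.5-fold higher. These genes were already known to differ when the lists were made, so their count is not independent of the data. All 3 are in the list of C/EBP targets and acute phase genes, whose factors CEBPA and CEBPB differed by 0.02 and -0.10.

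ADH1C, an alcohol dehydrogenase, had a log2 signal of 5.33 in the knockdown array and 6.97 in the control array, a difference of -1.64. FGA, the alpha chain of fibrinogen, had 4.97 in the knockdown array and 6.10 in the control array, a difference of -1.13. Both were under the floor in the knockdown array only, and set against the floor ADH1C was at least 2.18-fold lower and FGA at least 1.19-fold lower. CP, the copper-carrying plasma protein ceruloplasmin, had 7.71 in the knockdown array and 8.82 in the control array, a difference of -1.11, and was above the floor in both. The list of C/EBP targets and acute phase genes had 3 of 10 measured genes higher and 7 lower, with a median of -0.05 and a mean of -0.35. IGFBP1, a secreted binding protein of insulin-like growth factors that is also a FOXA target, had 6.97 in the knockdown array and 6.41 in the control array, a difference of 0.56. A1CF, which helps edit the APOB transcript, stood at -0.40, AGT (angiotensinogen), whose control signal of 5.83 was under the floor, at 0.19 and the pseudokinase TRIB1, which promotes the breakdown of CEBPA, at 0.08. Of this list 23 of 33 genes with a row were below the floor in both arrays.

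The promoters of ADH1C and FGA are shown because they had the lowest differences among the measured target genes and both held the forkhead motif. The 474 measured genes with that motif in the 250 bases before a start had a median difference of -0.03, and the measured genes without it -0.02. At least 1.5-fold different were 3.16% of those with it and 1.84% of those without it. For the C/EBP motif the medians were -0.06 in 675 genes with it and -0.02 in the others, and 2.81% and 1.84% were at least 1.5-fold different. These figures describe the arrays and were not tested. In the sequences capitals mark the forkhead motif GCAAACA in both, and in FGA also the C/EBP motif TTGAGCAA, which is TTGCNNAA read on the opposite strand and does not overlap it.
ADH1C, chr4:99352747-99352996, minus strand: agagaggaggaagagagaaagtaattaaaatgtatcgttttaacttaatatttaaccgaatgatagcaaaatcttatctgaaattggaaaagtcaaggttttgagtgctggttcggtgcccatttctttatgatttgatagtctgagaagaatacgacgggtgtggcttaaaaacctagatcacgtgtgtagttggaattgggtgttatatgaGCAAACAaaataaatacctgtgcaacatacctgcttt
FGA, chr4:154590743-154590992, minus strand: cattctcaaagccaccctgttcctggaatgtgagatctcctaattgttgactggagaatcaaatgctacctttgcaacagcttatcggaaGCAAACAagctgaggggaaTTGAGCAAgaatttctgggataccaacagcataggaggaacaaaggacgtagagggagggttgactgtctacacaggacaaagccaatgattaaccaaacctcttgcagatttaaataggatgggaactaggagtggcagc
The forkhead match begins 37 bases before the start in ADH1C and 160 bases before it in FGA, and the C/EBP match in FGA begins 141 bases before the start. A match is a stretch of letters and was not shown to be bound in these cells.

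The known targets of HNF4A had 8 measured genes, 6 higher and 2 lower, with a median of 0.17, but only 4 of the 8 were above the floor in both arrays. APOA2, CYP2D6 and AGT passed it through the knockdown array alone, where they were higher, and APOB through the control array alone, so the count depends on the floor. APOB, the main protein of low-density lipoprotein, had 5.80 in the knockdown array, below the floor, and 6.27 in the control array, a difference of -0.47. In the other direction, APOA2 stood at 0.23, CYP2D6 at 0.23 and CREB3L3, also described above, at 0.25. The FOXA target list had 4 measured genes, IGFBP1 at 0.56, APOA1 at 0.14, AGR2 at 0.13 and SERPINA1 at -0.02, with a median of 0.14. Among the ONECUT1 targets 3 genes were measured: FOXA2 itself, SPP1 (osteopontin) at 0.13, and ITGA3, whose signal of 8.36 was equal in both arrays. The NR5A2 targets had 6 of 7 measured genes higher and 1 lower, with a median of 0.16. FADS2, a fatty acid desaturase, stood at 0.22, SCARB1, the receptor for high-density lipoprotein, at 0.22, the cyclin CCND1 at 0.20 and the organic anion exporter ABCC3 at -0.22. CYP7A1, the rate-limiting enzyme of bile acid synthesis and the best-known NR5A2 target, was far below the floor, with 2.40 in the knockdown array and 2.34 in the control array; it is named outside the rule.

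**Figure D5:**
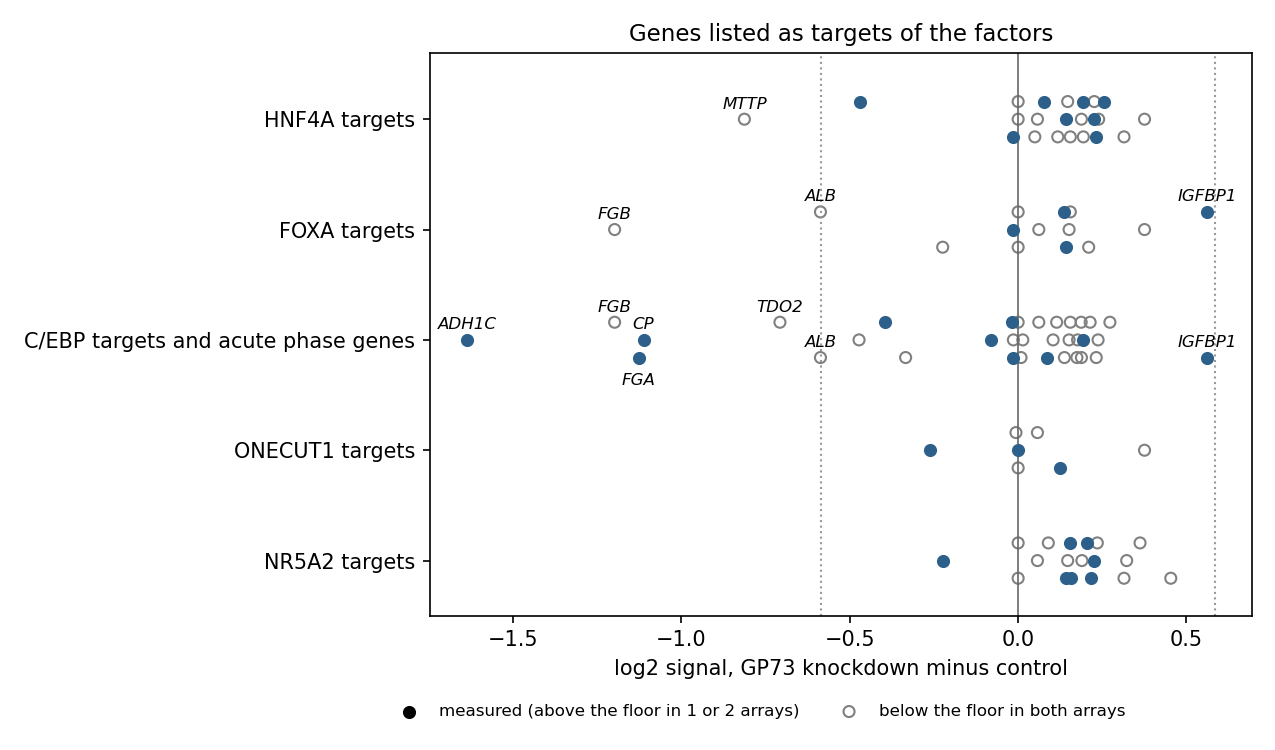
Difference in log2 signal, GP73 knockdown minus control (horizontal axis), of the genes of 5 lists of known targets of the liver factors, 1 point per gene and list, with vertical offsets only to separate points. Filled points were measured, open points were below the floor in both arrays, and the dotted lines mark 1.5-fold; ADH1C at -1.64, FGA at -1.13 and CP at -1.11 are the measured genes past them.

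The label of a liver cancer line was set beside markers of cell types, and no cell type was assigned from them. Of 8 hepatocyte markers with a row 4 were measured: APOH, a plasma phospholipid-binding protein, had 8.87 in the knockdown array and 9.07 in the control array, and SERPINA1, APOA1 and APOB lay near the floor. Albumin (ALB) was below it, with 3.76 in the knockdown array and 4.35 in the control array, as was fibrinogen beta (FGB), with 3.93 in the knockdown array and 5.13 in the control array, and so was TTR, with 4.55 in the knockdown array and 4.18 in the control array. The fetal marker AFP had 2.56 in both arrays. Of 6 bile duct markers with a row 4 were measured. SPP1 had 10.73 in the knockdown array and 10.60 in the control array. KRT19 had 8.38 in the knockdown array and 8.40 in the control array. KRT7 had 7.48 in the knockdown array and 7.30 in the control array. SOX9 was measured too, at a difference of 0.05, and EPCAM and CFTR were below the floor. COL1A1, at 0.17, was the 1 measured gene among 5 markers of fibroblasts and stellate cells, and COL1A2, PDGFRB, LUM and DCN were not. Of 4 endothelial markers 2 were measured, KDR at -0.06 and PECAM1 at -0.72, PECAM1 being below the floor in the knockdown array, while CDH5 and VWF were below it in both. None of the leukocyte markers PTPRC, CD3E, LYZ and CD14 was measured, their signals lying between 2.34 and 4.95. Both arrays were of cultures of 1 cell line. In their bulk RNA, fewer cells expressing a gene and less of its RNA per cell cannot be told apart.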

How the data were processed

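Total RNA of GP73 knockdown and control MHCC97H cells was labelled with biotin and hybridised to 1 Affymetrix array per condition, per the labels' protocols. The authors deposited 1 log2 signal per row and array; the submitters' processing notes name Affymetrix Expression Console. Version, background correction, normalisation, log base and genome build: not given in the sources used here. A log2 scale was read off the range, 0.326 to 13.3 in the knockdown array and 0.360 to 13.2 in the control array. With so few arrays, their number sets the precision.

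Of 70523 rows, 23784 had 1 gene symbol in the platform annotation, 1540 several and 45199 none. The NCBI gene table of GRCh38.p14 supplied current symbols, with 21497 rows matched on identifier, 1977 on symbol and 306 on an older symbol that fits 1 gene, while 4 kept theirs. Where a gene had more than 1 row, that of highest mean signal was used. The floor was the 50th percentile of the higher signal over all genes. Lowess used a fraction of 0.3. A gene bound against the floor is the higher signal minus the floor. Counts past 2-fold and 1.5-fold, list medians and motif searches are descriptions; with 1 array per group no test was run. The factors and lists were chosen with earlier results of these data known. In each list the text names every measured gene at least 1.5-fold different, up to 4 more with the largest absolute difference, and the marker genes; a gene named outside this rule was chosen after its values were seen. Alternatives were median centring, quantile normalisation, trend removal, no floor, a higher floor (75th percentile), averaging the rows of a gene, 1.5-fold in place of 2-fold, the mean of a list, and, added after seeing the data, protein-coding genes alone. The procedure was tested on simulated data. Promoter sequences are those of RefSeq on GRCh38.p14. Python 3.11.15, numpy 2.4.6, pandas 2.3.3, scipy 1.17.1, statsmodels 0.14.6 and matplotlib 3.10.9 were used.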

Additional observations from a re-analysis of the deposited data

How the results depend on the processing

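No factor passed 2-fold or 1.5-fold, higher or lower, under any scaling, floor or threshold tried. In 28 recomputed values of the 7 factors none moved by as much as the SD of 0.133 between rows of 1 gene. CEBPA changed sign, from 0.02 to -0.06 with median centring. Part of this count could not come out otherwise. Each factor had 1 row, so averaging rows left its value as it was. Median centring shifted every gene by the same amount, which was below that SD. The measured genes at least 2-fold higher numbered 18 and at least 2-fold lower 15; at 1.5-fold they were 121 and 174, among protein-coding genes 9 and 8, and those lower were 23 with no floor and 9 with the higher floor (75th percentile). The higher floor also put the FOXA targets at 0.56, the value of IGFBP1, the only gene left, and the nuclear receptors at 0.22. The endothelial markers stood at 0.043 with no floor, and the C/EBP targets at a mean of -0.35 against a median of -0.05. Of 15 list medians 4 changed sign under at least 1 alternative, those of the nuclear receptors, the C/EBP targets, the ONECUT1 targets and the endothelial markers. The causes were not tested. No paired analysis was possible because each group has 1 array, and no replicate could be left out. Signal near the floor limits FOXA3, NR5A2 and ONECUT1.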

Other observations

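Several listed genes that were below the floor in both arrays had differences larger than those of the factors, and are named here after their values were seen. Of the HNF4A targets below the floor 11 were higher and 1 lower in the knockdown array. For the C/EBP targets and acute phase genes below it these counts were 16 and 6. Genes of low signal leaned higher whatever their list. In signal bins 1 to 10, those of lowest signal, the median difference over all genes lay between 0.07 and 0.14. That lean is the background for these counts, which were not tested. Among all listed genes below the floor, those higher included the HNF4A targets TTR at 0.38 and FABP1 at 0.31. They also included NR0B2 at 0.45 and CEL at 0.36, which are in the list of NR5A2 targets. MTTP, which loads lipid onto APOB, was the 1 lower HNF4A target below the floor. It had log2 signals of 4.87 in the knockdown array and 5.68 in the control array, a difference of -0.81 in the same direction as APOB. TDO2, a tryptophan-degrading enzyme of hepatocytes, had 4.80 in the knockdown array and 5.51 in the control array. FGG, the third fibrinogen chain, had 2.38 in the knockdown array and 2.85 in the control array, so all of FGA, FGB and FGG had the lower value in the knockdown array. FOXD1, a forkhead factor of kidney development, had 5.64 in the knockdown array and 5.04 in the control array.

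Of the deposited values, those of 4359 rows, 6.18% of 70523, were the same in both arrays, and 190 measured genes were among them. In the lists these equal values belong to ITGA3 at 8.36, and, below the floor, to TEF at 5.72, ABCG8 at 4.98, CYP3A4 at 3.81, G6PC1 at 3.76 and AFP at 2.56. None of the 7 liver factors had equal values.

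Over the measured genes with a promoter in the RefSeq table, the share at least 1.5-fold different was 4.08% for the 638 genes with TATAAA and 1.74% for those without it. It was 4.41% for the 136 genes with a cut homeodomain motif and 1.88% for those without it. For the 216 genes with an NR5A2 motif it was 2.31%, against 1.91% for those without it. None of the 59 genes with an HNF4 motif differed by 1.5-fold, against 1.93% of those without it. The shares rest on few genes: 26 with TATAAA, 6 with a cut homeodomain motif and 5 with an NR5A2 motif. They describe the arrays and were not tested.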
